A study of Ursus arctos with 12 samples.

Results

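Sodium and chloride channel genes were followed between seasons in brown bear muscle, taken by symbol as SCN4A, SCN7A, SCN2B, SCN3B, SCN4B and CLCN1. They were 6 of the 30249 genes in the counts, and 6 of the 17290 genes that had at least 30 reads summed over all libraries. The libraries came from the vastus lateralis, a thigh muscle, of 6 free-ranging brown bears (Ursus arctos) 2 to 3 years old. Each bear gave 1 biopsy in winter, while hibernating, and 1 in summer, while active, and the study compared the seasons to look for what keeps the muscle of the hibernating bear from wasting. Hibernation, fasting, inactivity and time of year differ together between the seasons and cannot be told apart here. The genes were chosen by their counts in these same winter and summer libraries, so their season differences are described below and not tested.

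An action potential in a muscle fibre is carried by sodium that enters through a large pore-forming alpha subunit, while small beta subunits, each with 1 membrane span, bind the pore and tune its gating and its amount at the surface. The resting chloride conductance, carried mostly by the ClC-1 channel, damps the fibre after each action potential, and its loss causes myotonia, in which the fibre keeps firing. Denervated muscle is known for a change in which sodium channels it expresses.

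Between 20191068 and 27283155 reads per library were counted on genes in summer and between 16742406 and 32140160 in winter. All 16 muscle fibre markers were detected, and their summed level was 152119 to 244282 CPM (the reads of a gene relative to the TMM-scaled size of its library) in summer and 167361 to 210297 CPM in winter. Markers of other cells moved with the season. The summed level of 5 fibroblast markers was 3063 to 7897 CPM in summer and 228 to 1282 CPM in winter, that of 5 endothelial markers 565 to 899 and 356 to 411 CPM, and that of 5 smooth muscle and pericyte markers 440 to 570 and 236 to 329 CPM. Of these markers 3, 5 and 2 were called lower and 0 higher, beside 19.9% lower and 19.6% higher of all genes tested. Macrophage markers (2 of 4 lower) summed to 47.3 to 97.2 CPM in summer and 35.1 to 62.2 CPM in winter, and adipocyte markers (1 of 4 higher) to 16.4 to 486 and 8.27 to 183 CPM. The part of these cells in the channel values was not tested. In bulk tissue, fewer cells of a type and less RNA per cell cannot be told apart. The winter library of bear 1509 stood apart on the second principal component, at −98.6, where the rest of the winter libraries had 6.35 to 23.1. In that library NEFL, a neurofilament gene of axons singled out after its values were seen, had 164 reads, against 0 to 7 in the other libraries. Where a call or a count of calls in a list changed without this library, both values are given.

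The 6 channel genes had no common direction between the seasons. SCN3B, a beta subunit, was several fold higher in winter, SCN4A, the muscle pore, was slightly higher in most bears, and SCN4B, SCN7A, SCN2B and CLCN1 had lower medians in winter. By edgeR's quasi-likelihood test at an adjusted p below 0.05, 4 of the 6 were called, 2 higher and 2 lower, while 39.5% of all genes tested were called, 19.6% higher and 19.9% lower. The winter and summer libraries did not overlap for 3 of the 6, 1 higher and 2 lower, as for 17.3% of all genes tested (9.12% higher and 8.21% lower). The direction was shared by all 6 bears for 3 of the genes, 1 higher and 2 lower, and for 37.4% of all genes tested (18.4% higher and 19.0% lower). Since this comparison chose the genes, nothing is read from these counts. Without bear 1316 or with library totals the count called was 3, 1 higher and 2 lower, and without bear 1305 it was 4, 1 higher and 3 lower.

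**Figure D1:**
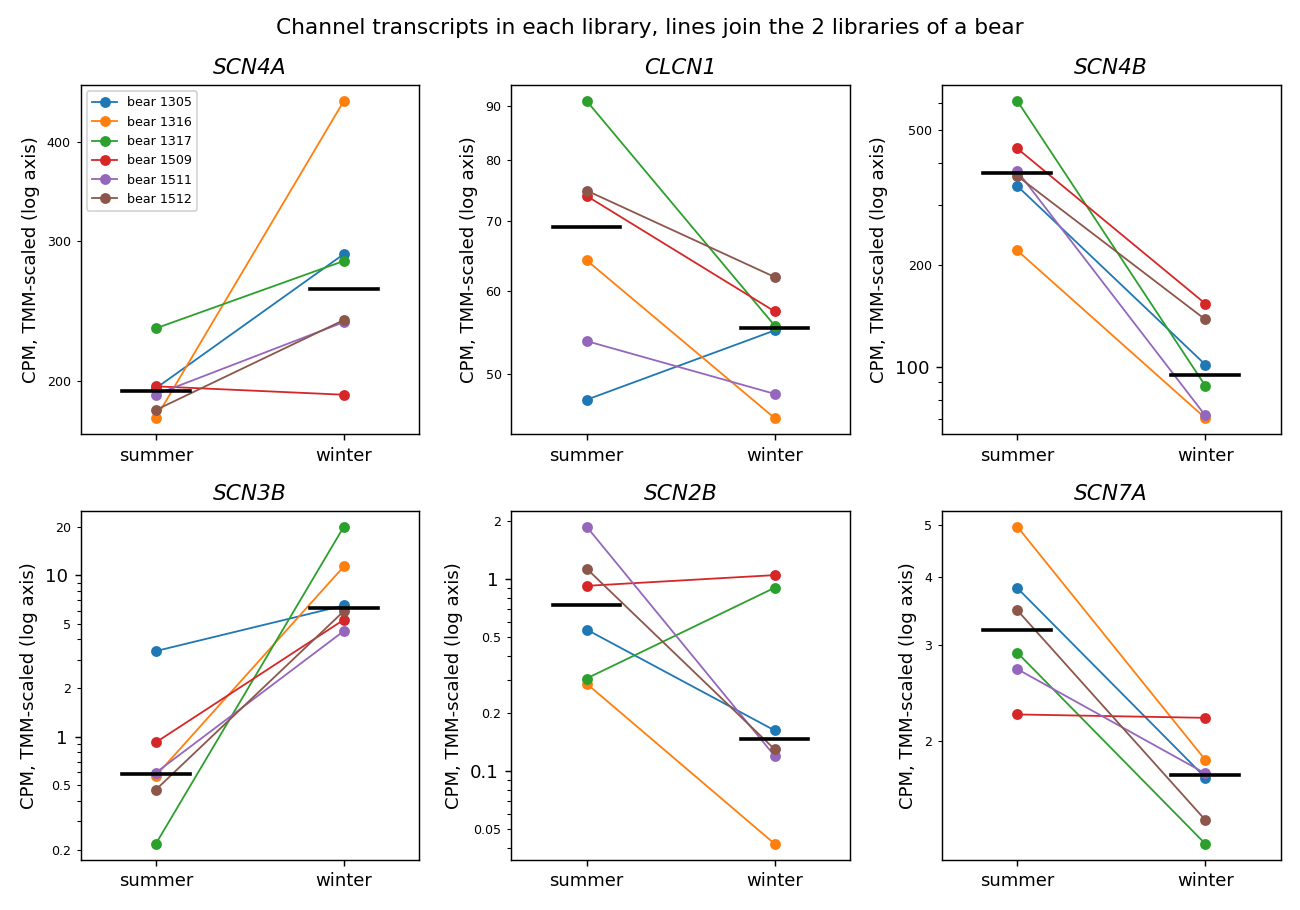
Level of each of the 6 channel genes in CPM, scaled by TMM, on a log axis, in the summer and winter library of each bear, with a line joining the libraries of a bear and a black bar at the median of 6 libraries. SCN4B and SCN7A are lower and SCN3B higher in winter with no overlap of the libraries, while SCN4A, CLCN1 and SCN2B overlap.

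SCN4A encodes the pore-forming sodium channel subunit of adult skeletal muscle, which carries the upstroke of the action potential. In summer its level was 180 CPM at the lowest, 194 CPM at the median and 233 CPM at the highest, and in winter 192, 261 and 451 CPM. The 2 seasons overlapped, and 5 of 6 bears were higher in winter. The lowest winter library was that of bear 1509, at 192 CPM, and the highest that of bear 1316, at 451 CPM, above the other winter libraries, which lay at 192 to 289 CPM. The fitted log2 fold change was 0.52 (standard error, SE, 0.17), with single bears from −0.04 to 1.33. Leaving out bear 1316 gave 0.31. Summer libraries lay close together (SD 0.13 log2 CPM, n = 6 bears) and winter libraries apart (SD 0.42 log2 CPM, n = 6 bears).

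CLCN1 encodes ClC-1, the chloride channel of the muscle fibre membrane. Its level was 47.2 CPM at the lowest, 69.0 CPM at the median and 91.1 CPM at the highest in summer, and 45.4, 55.3 and 61.8 CPM in winter. The winter libraries lay within or just below the range of the summer libraries, and 5 of 6 bears were lower in winter, bear 1305 being the exception. The fitted log2 fold change was −0.33 (SE 0.15), with single bears from −0.71 to 0.22. Here the spread was wider in summer (SD 0.35 log2 CPM, n = 6 bears) than in winter (SD 0.17 log2 CPM, n = 6 bears), the reverse of SCN4A.

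The ratio of CLCN1 to SCN4A reads within a library does not depend on how libraries are scaled. In summer it was 0.241 at the lowest, 0.366 at the median and 0.407 at the highest, and in winter 0.101, 0.199 and 0.298. The ratio was lower in winter in 6 of 6 bears, by 0.33 to 1.83 on the log2 scale, although the ranges of the seasons overlapped. The values count reads and not molecules, since longer transcripts give more reads and no transcript length was used.

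SCN4B encodes beta-4, a beta subunit joined to the pore by a disulfide bond and known for its part in the resurgent sodium current of neurons. With 4621 to 14022 reads per library in summer and 1195 to 4237 in winter, it was measured at high depth. Its level was 220 CPM at the lowest, 372 CPM at the median and 609 CPM at the highest in summer, and 70.6, 94.8 and 154 CPM in winter. All winter libraries lay below all summer libraries, and 6 of 6 bears were lower in winter. The fitted log2 fold change was −1.92 (SE 0.25), a winter level 0.265 times that of summer, with single bears from −2.79 in bear 1317 to −1.41 in bear 1512. Ordered from the most negative log2 fold change, it held rank 480 of the 17290 genes. Bear 1317 had the highest summer library, and without it the log2 fold change was −1.70.

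SCN3B encodes beta-3, a beta subunit best known from neurons and heart. Its level was 0.217 CPM at the lowest, 0.586 CPM at the median and 3.39 CPM at the highest in summer, and 4.51, 6.24 and 20.0 CPM in winter. The counts were 5 to 93 reads in summer and 75 to 355 in winter. All winter libraries lay above all summer libraries. The summer library of bear 1305, with 93 reads, was above the other summer libraries, which had 0.217 to 0.922 CPM. The fitted log2 fold change was 3.09 (SE 0.58), a winter level 8.51 times that of summer and rank 234 of the 17290 genes from the most positive log2 fold change. Single bears differed widely, from 0.92 in bear 1305 to 6.05 in bear 1317, and the log2 fold change was 4.06 without bear 1305 and 2.48 without bear 1317.

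SCN2B encodes beta-2, the other disulfide-linked beta subunit. It was near the limit of detection, with 6 to 47 reads per library in summer and 1 to 19 in winter. Its level was 0.286 CPM at the lowest, 0.734 CPM at the median and 1.88 CPM at the highest in summer, and 0.042, 0.147 and 1.05 CPM in winter. The seasons overlapped, with 4 of 6 bears lower in winter and bears 1317 and 1509 higher. The log2 fold change of −1.13 had a SE of 0.69, and it was −0.55 without bear 1511, −1.71 without bear 1317 and −1.72 without the winter library of bear 1509, so the size of a season difference could not be set at this depth. In the later RefSeq assembly UrsArc2.0, SCN2B and SCN4B are next to each other.

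SCN7A encodes Nax, an atypical relative of the sodium channel pores that senses the sodium level in glia and is also known from Schwann cells. It had 51 to 105 reads per library in summer and 23 to 44 in winter. Its level was 2.24 CPM at the lowest, 3.20 CPM at the median and 4.96 CPM at the highest in summer, and 1.295, 1.73 and 2.21 CPM in winter. The libraries did not overlap, by a narrow margin, and both values at that margin came from bear 1509, at 2.24 CPM in summer and 2.21 CPM in winter. The fitted log2 fold change was −0.97 (SE 0.21), with single bears from −1.38 to −0.02, and −1.06 without the winter library of bear 1509.

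Schwann cell and nerve markers were counted beside SCN7A. Of the 21 listed genes, 19 were in the counts and 18 were tested. In edgeR at an adjusted p below 0.05, 3 were lower and 0 higher, beside 19.9% and 19.6% of all genes. Without adjustment, 3 were lower and 2 higher at a p below 0.05 in edgeR, and 3 and 0 in DESeq2, which also called 3 lower and 0 higher after adjustment. The 2 higher were NEFL and NEFM, with 164 and 118 reads in the winter library of bear 1509. Their medians were 0.0673 and 0.0826 CPM in summer and 0.0607 and 0.0464 CPM in winter. The summed level of the markers was 98.9 to 159.8 CPM in summer and 114.5 to 205 CPM in winter, and none was at 0 in every library. SOX10, which defines the lineage, had 0 to 8 reads. GFRA3 (log2 fold change −2.06, adjusted p = 0.0152), NGFR (−1.24, adjusted p = 0.0218) and S100B (−1.03, adjusted p = 0.0322) were the 3 that fell in edgeR, the last also known from other cells. GFRA3 was not called without bear 1305 or 1316 (adjusted p 0.0645 and 0.058), NGFR not without bear 1316 or 1512 (0.0691 and 0.0712), and S100B not without bear 1305, 1316 or 1317 (0.107, 0.15 and 0.0561). Over the alternatives the adjusted p lay from 0.0016 to 0.0645 for GFRA3, from 0.00271 to 0.0712 for NGFR and from 0.000479 to 0.15 for S100B. A replicate block by bear gave 4 lower and 1 higher, without the winter library of bear 1509 or without bear 1509 5 were lower, without bear 1305 1 was lower, and without bear 1316 there were 0 calls in edgeR (2 lower and 2 higher without adjustment). The part of these cells in the SCN7A difference was not tested.

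The 3 beta subunit genes were also set against each other and against the pore. Of the reads on SCN2B, SCN3B and SCN4B together, SCN4B held 98.9 to 99.9% in summer (median 99.6%) and 80.8 to 96.0% in winter (median 93.9%). The share of SCN3B was 0.0356 to 0.981% in summer (median 0.183%) and 3.31 to 18.4% in winter (median 5.95%), with no overlap. SCN2B held the least at the winter median, with 0.0499 to 0.493% in summer and 0.0512 to 0.828% in winter. The summed level of the 3 genes was 221 to 609 CPM in summer and 76.5 to 160.0 CPM in winter. Set against the pore, SCN4B gave 1.23 to 2.61 reads per SCN4A read in summer (median 1.98) and 0.157 to 0.799 in winter (median 0.331), and was lower in 6 of 6 bears.

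**Figure D2:**
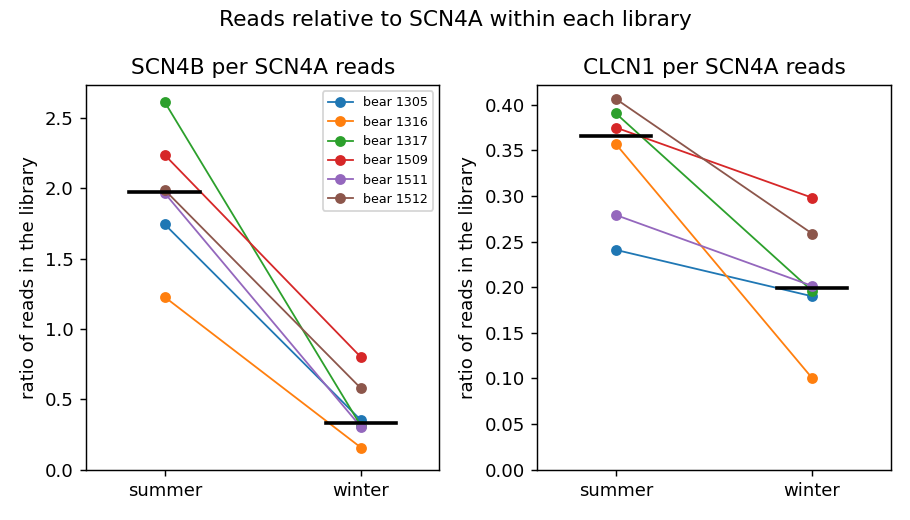
Reads of SCN4B and CLCN1 divided by the reads of SCN4A in the same library, for the summer and winter library of each bear, with a line joining the libraries of a bear and a black bar at the median of 6 libraries. Both ratios were lower in winter in 6 of 6 bears, with no overlap of the seasons for SCN4B and an overlap for CLCN1.

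The other voltage-gated sodium channel genes were scarce. Of 7 listed genes, 5 were in the counts and 3 were tested, since SCN9A and SCN11A had 29 and 20 reads in all. In edgeR 1 was higher and 1 lower in winter, 2 of 3 beside the 39.5% of all genes. The median log2 fold change was 1.00 beside −0.0021 over all genes. Over 3 genes this median is the value of SCN8A, which was lower without the winter library of bear 1509, as given below. SCN3A, a pore of the developing brain, had 0 to 48 reads per library and a log2 fold change of 1.53 (SE 0.85, adjusted p = 0.169), with the 48 reads in the winter library of bear 1509. Without that library it was 0.29.

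SCN8A, the pore of axon initial segments and nodes, was at 1.57 to 3.56 CPM in summer (median 2.60) and 2.77 to 12.8 CPM in winter (median 3.80). It was called higher in edgeR, at a log2 fold change of 1.00 (SE 0.36, adjusted p = 0.0377), in 5 of 6 bears. The 12.8 CPM came from the winter library of bear 1509, with 232 reads against 43 to 128 in the other libraries, the same library that held the NEFL reads above. Without that library the log2 fold change was 0.51 and the adjusted p 0.0842, so 0 of the 3 genes were then called higher in edgeR (adjusted p 0.0152 to 0.134 over the alternatives). Its call was also lost without bear 1305, 1316, 1509 or 1512 (adjusted p 0.0608, 0.0761, 0.134 and 0.0613), with library totals (0.0648) and in limma voom (0.0626). SCN10A, a pore of sensory neurons, fell from a median of 1.25 to one of 0.287 CPM, with 4 to 44 reads per library in summer and 3 to 14 in winter. It was lower in 6 of 6 bears (−1.85 on the log2 scale, SE 0.53, adjusted p = 0.013). Its call was lost in limma voom (adjusted p = 0.0614) and without bear 1511 (0.0519), with a range of 0.000779 to 0.0614 over the alternatives.

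Of the other CLC family genes, 6 were tested of 10 listed, and 1 was higher and 3 lower in edgeR (4 of 6 beside the 39.5% of all genes), with a median log2 fold change of −0.14. Without bear 1316, 0 were higher and 2 lower, and without the winter library of bear 1509, 1 was higher and 2 lower. CLCN5, an exchanger of endosomes, was at 2.77 to 5.34 CPM in summer and 2.11 to 2.92 CPM in winter. It fell in 6 of 6 bears, at −0.72 on the log2 scale (SE 0.19, adjusted p = 0.00778). OSTM1, the partner subunit of the lysosomal exchanger CLCN7, also fell in 6 of 6 bears, from a median of 16.1 to one of 11.3 CPM (log2 fold change −0.53, SE 0.14, adjusted p = 0.00985). CLCN7 itself was at 12.2 to 19.5 CPM in summer and 10.7 to 22.3 CPM in winter and was not called (0.08, SE 0.16, adjusted p = 0.722).

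CLCN6, of late endosomes, rose in 6 of 6 bears from a median of 8.18 to one of 11.6 CPM, at 0.53 on the log2 scale (SE 0.15, adjusted p = 0.0139). Its call was lost with library totals (adjusted p = 0.0547) and without bear 1316 (0.0613) (range over the alternatives 0.0037 to 0.0613). CLCN4, an endosomal exchanger, fell in 5 of 6 bears, from a median of 31.4 to one of 26.3 CPM (log2 fold change −0.36, SE 0.13, adjusted p = 0.0329). Its call was lost without bear 1305, 1316, 1317 or 1509 (adjusted p 0.0623, 0.0585, 0.0936 and 0.106) and without the winter library of bear 1509 alone (0.0526), within 0.0242 to 0.106 over the alternatives. CLCN2, a chloride channel of many tissues, had 24 to 41 reads per library and was not called (0.11, SE 0.20, adjusted p = 0.68). The log2 fold change of CLCN1, −0.33, thus lay close to that of CLCN4 and above that of CLCN5.

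**Figure D3:**
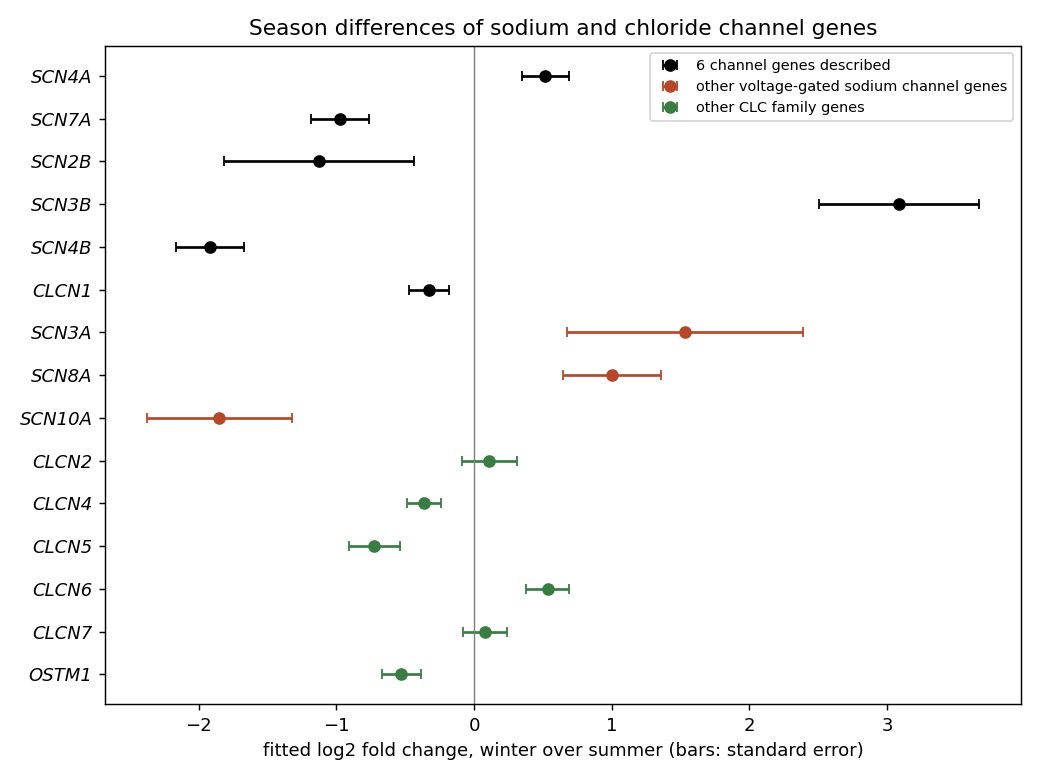
Fitted log2 fold change, winter over summer, with its SE, for the 6 channel genes (black), the other voltage-gated sodium channel genes (red) and the other CLC family genes (green). SCN3B lies highest at 3.09 and SCN4B lowest at −1.92, SCN10A is next to it at −1.85, and CLCN7 lies near 0.

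Proteins that anchor the sodium channel to the spectrin and dystrophin skeleton, bind its tail or mark it for removal made up a list of 23 genes, 21 of them tested. In edgeR 5 were higher and 3 lower, 8 of 21 beside the 39.5% of all genes, with a median log2 fold change of 0.02. A replicate block by bear gave 6 higher and 5 lower with edgeR, and DESeq2 with the same block gave 5 of each. Without the winter library of bear 1509 and in limma voom, 5 were higher and 5 lower. NEDD4L, a ubiquitin ligase that takes sodium channels off the surface, rose from a median of 43.7 to one of 65.2 CPM (log2 fold change 0.75, SE 0.14, adjusted p = 0.00102). FGF13, which binds the tail of the pore, rose at 0.57 (SE 0.11, adjusted p = 0.0014), and SCNM1, a splicing factor first found as a modifier of SCN8A, at 0.56 (SE 0.12, adjusted p = 0.00245). These 3 genes were higher in 6 of 6 bears, with no overlap of the libraries.

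Among the 3 that fell, RANGRF, which helps sodium channels to reach the membrane, had 12 to 32 reads per library in summer and 1 to 4 in winter (log2 fold change −3.00, SE 0.37, adjusted p = 5.79e-05, lower in 6 of 6 bears). SPTBN1, a spectrin, fell from a median of 435 to one of 327 CPM (−0.38, adjusted p = 0.0111, lower in 5 of 6 bears). SNTB2, a syntrophin of the dystrophin complex, was at −0.58 (adjusted p = 0.0311), but was not called without bear 1305, 1317, 1511 or 1512 (adjusted p 0.0816, 0.103, 0.0839 and 0.0782, within 0.00903 to 0.103 over the alternatives).

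For ClC-1, the list held splicing factors of its transcript, kinases that act on it and proteins that fold it or send it for degradation, 18 genes, all tested. In edgeR 7 were higher and 4 lower, 11 of 18 beside the 39.5% of all genes, with a median log2 fold change of 0.20. HSP90AB1, a chaperone of the channel, rose from a median of 1353 to one of 2144 CPM (log2 fold change 0.73, SE 0.13, adjusted p = 0.000778). CUL4B, a scaffold of the ubiquitin ligase that targets ClC-1, rose at 0.47 (adjusted p = 0.00909) but not with library totals (adjusted p = 0.0639, within 0.00187 to 0.0639). MBNL3, a muscleblind splicing factor, rose at 1.302 (adjusted p = 0.0086) on 4 to 26 reads per library. Without bear 1305 its adjusted p was 0.0512 (0.00552 to 0.0512 over the alternatives). The more abundant MBNL1, at medians of 279 CPM in summer and 404 CPM in winter, was called higher in edgeR (0.48, adjusted p = 0.0129). It was higher in 6 of 6 bears. MBNL2, at medians of 137 and 140 CPM, was not called (−0.02, adjusted p = 0.898). MBNL1 and MBNL2 were given after their values were seen.

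On the lower side of that list, STUB1, a ubiquitin ligase that works with chaperones, fell at −0.60 (SE 0.16, adjusted p = 0.00862), and AHSA1, which activates HSP90, at −0.39 (SE 0.08, adjusted p = 0.00151), both in 6 of 6 bears. PRKCQ, the main protein kinase C of muscle, which is of the kinase family that closes ClC-1, was at 151 CPM at the summer median and 129.99 CPM at the winter median (−0.31, SE 0.10, adjusted p = 0.029), lower in 6 of 6 bears. With the bear as a replicate block its adjusted p was 0.0641 in edgeR and 0.0548 in DESeq2. It was 0.0773, 0.122 and 0.0775 with bear 1316, 1317 or 1512 left out, and its full range was 0.0158 to 0.122. Scaled by library totals, 3 genes of this list were called higher and 4 lower, and without bear 1305 also 3 and 4.

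Other chloride channels and sodium leak channels were listed under 41 symbols, and 31 genes were tested. FAM155A and FAM155B were also listed under their newer symbols, NALF1 and NALF2, which the counts do not hold. In edgeR 5 were higher and 8 lower, 13 of 31 beside the 39.5% of all genes, with a median log2 fold change of −0.01. ANO8, an anoctamin, fell from a median of 7.87 to one of 1.45 CPM (log2 fold change −2.16, SE 0.23, adjusted p = 1.99e-05). TTYH3, of the tweety family, fell at −1.72 (SE 0.23, adjusted p = 0.000101), and CLIC1, of the intracellular chloride channel family, at −0.999 (SE 0.16, adjusted p = 0.000269). Each of these 3 was lower in 6 of 6 bears, with no overlap of the libraries. ANO2, a calcium-activated chloride channel, rose from a median of 5.09 to one of 11.97 CPM (1.06, SE 0.29, adjusted p = 0.0106).

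LRRC8B, of the volume-regulated chloride channel, was higher at 0.50 (adjusted p = 0.0183) and ANO10 at 0.27 (adjusted p = 0.0243). Neither was called with library totals (adjusted p 0.0624 and 0.199), LRRC8B not without bear 1305 or 1512 (0.0661 and 0.0764), and ANO10 not without the filter (0.0554) or without bear 1316, 1317 or 1512 (0.0669, 0.075 and 0.0586). Over the alternatives the adjusted p lay from 0.0049 to 0.0764 for LRRC8B and from 0.00452 to 0.199 for ANO10. The genes of the volume-regulated channel had no common direction. LRRC8C (−0.62, adjusted p = 0.0101) and LRRC8D (−0.61, adjusted p = 0.0188) were called lower in edgeR, each in 6 of 6 bears. LRRC8A (−0.22) and LRRC8E (−0.01) were not called. LRRC8A, LRRC8C, LRRC8D and LRRC8E were given after their values were seen. The other 2 called higher were UNC79 and UNC80, of the sodium leak channel complex, singled out after their values were seen. NALCN, the pore of that complex, was not called in edgeR (−1.23, SE 0.47, adjusted p = 0.0514), with 5 of 6 bears lower. Its winter level was 0.252 to 3.75 CPM (median 1.16), with the highest in the winter library of bear 1509. FAM155B, of the same complex, was called lower in edgeR, in 6 of 6 bears (−1.33, adjusted p = 0.0128). FAM155A was not called (1.65, adjusted p = 0.145). These 3 genes were also given after their values were seen. UNC80 had 74 reads in the winter library of bear 1509 and 0 to 3 reads in the others. UNC79 had 40 of its 51 reads in that same library. Without that library 3 genes of the list were higher and 10 lower.

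Genes linked to denervation and the neuromuscular junction were counted because the sodium channels of muscle change when its nerve is lost. Of 18 listed, 16 were tested, and 5 rose and 0 fell in edgeR, as in DESeq2 (6 and 0 in both without adjustment). Of all genes tested, 19.6% were called higher and 19.9% lower in edgeR, 39.5% together. The median log2 fold change of the list was 0.17. ANKRD1, a stretch-responsive protein of the fibre, rose from a median of 30.3 to one of 681 CPM (log2 fold change 4.64, SE 0.58, adjusted p = 6.08e-05). CHRNE, the adult epsilon subunit of the acetylcholine receptor, rose from 3.76 to 15.0 CPM (1.91, SE 0.34, adjusted p = 0.000757), and MUSK, the receptor kinase of the junction, from 2.60 to 6.89 CPM (1.25, SE 0.19, adjusted p = 0.000243). These 3 genes were higher in 6 of 6 bears, and the libraries of the seasons did not overlap. The other 2 called higher were CHRNG, the fetal gamma subunit of the receptor (2.29, adjusted p = 0.00699, higher in 5 of 6 bears, with 193 reads in the winter library of bear 1317 and 8 to 118 in the others), and GADD45A, a stress-response gene (1.08, adjusted p = 0.00395, higher in 6 of 6 bears). Not called were 11 genes. Among them the log2 fold changes were −0.22 for MYOG, −0.38 for NCAM1, −0.23 for CHRNA1 and 0.09 for RUNX1. They were 1.06 for CHRND and 0.36 for CHRNB1, higher in 4 and 6 of 6 bears. MYOD1, HDAC4 and TRIM63 had −0.71, −0.19 and −0.15, and FBXO32 and SARM1 0.23 and 0.11. CHRNG, GADD45A and the 11 genes not called were given after their values were seen. Several of these are known to rise in denervated muscle, CHRNG, GADD45A, MYOG, NCAM1, CHRNA1 and RUNX1 among them. Without the winter library of bear 1509, 6 genes of the list were higher.

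The fibre markers themselves were mixed in edgeR, with 2 higher and 3 lower of 16 tested, beside the 39.5% of all genes called. Their median log2 fold change was 0.05. TTN, at 0.65 (SE 0.15, adjusted p = 0.0036), and NEB, at 0.53 (SE 0.14, adjusted p = 0.00805), which encode giant sarcomere proteins, rose in 6 of 6 bears. MYBPC2, the fast-fibre myosin-binding protein, fell at −1.24 (SE 0.16, adjusted p = 7.18e-05), and myoglobin, MB, at −1.01 (SE 0.18, adjusted p = 0.000639), in 6 of 6 bears each. ACTA1, skeletal actin, was lower in 5 of 6 bears at −0.90 (SE 0.28, adjusted p = 0.0212). It was not called without bear 1305, 1316 or 1509 (adjusted p 0.0619, 0.0834 and 0.063), within 0.00355 to 0.0834 over the alternatives. SCN4B, at −1.92, thus lay lower than each of these fibre markers, a comparison of fitted values only.

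**Figure D4:**
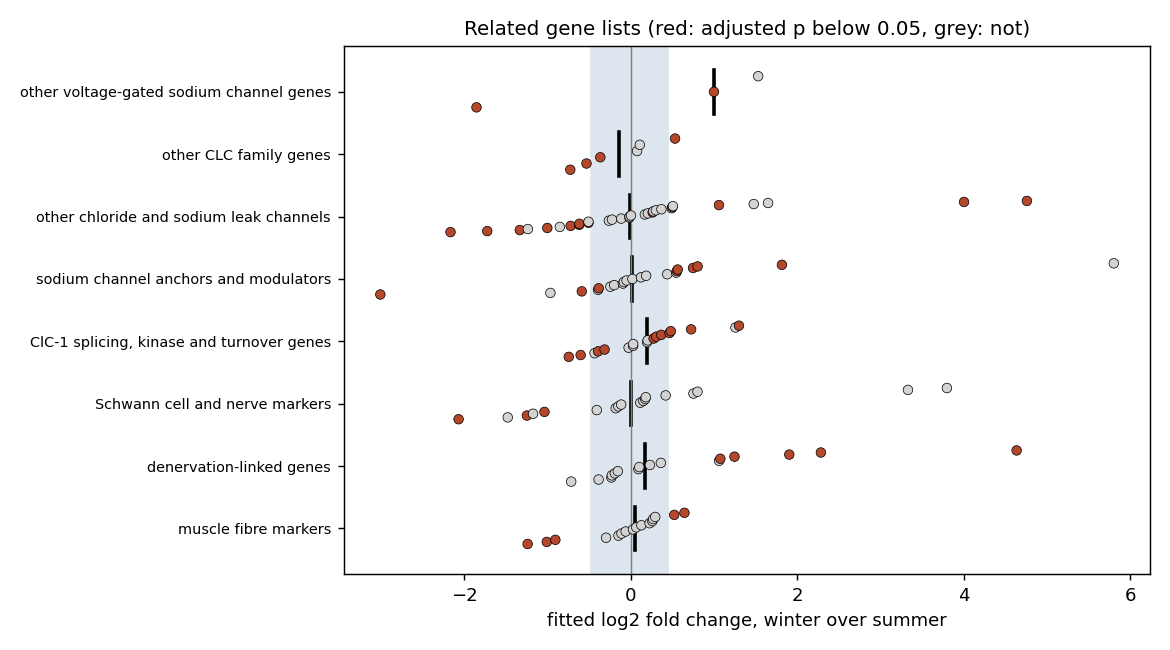
Fitted log2 fold change, winter over summer, of each tested gene in 8 related lists, red where the edgeR adjusted p is below 0.05 and grey otherwise, with a black bar at the list's median. The shaded band holds the middle 50% of all 17290 genes tested, and the list medians lie inside it except that of the other voltage-gated sodium channel genes, at 1.00 over 3 genes.

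To see which genes varied with the channels among bears of the same season, the season mean was subtracted from each log2 CPM and Pearson's r was taken over the 12 libraries against 7548 named genes whose mean log2 CPM was 3 or more. These r are the highest of many and are given as a description, with the library scaling shared by all points. SCN4B varied most closely with SMARCAD1 (0.96), PRKAB2 (0.94) and IDS (0.93). For SMARCAD1 r was 0.98 within summer and 0.95 within winter, and 0.97 with library totals. CLCN1 was closest to LRIG2 (0.91), ZFYVE1 (0.91) and FAM214A (0.91), each with a lower r within winter (0.82, 0.61 and 0.71) than within summer (0.96, 0.97 and 0.97). Among the closest to SCN4A were SIN3B (0.91) and VWA7 (0.90).

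For the scarcer genes the closest were ERI3, HDAC3 and ANAPC15 with SCN7A (0.90, 0.87 and 0.87), PFN2, PGAP3 and PRPF19 with SCN3B (0.84, 0.83 and 0.81), and TPM4, STN1 and HNRNPH2 with SCN2B (0.85, 0.84 and 0.82). Among the 15 pairs of the 6 channel genes, r ran from −0.62 for SCN3B and CLCN1 to 0.61 for SCN4B and CLCN1. SCN4A and SCN4B had an r of 0.87 within summer and −0.69 within winter, a pair with no common direction in the 2 seasons.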

How the data were processed

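Muscle RNA of 6 brown bears was sequenced in 12 libraries, 1 per bear and season. The authors prepared stranded poly-A libraries, aligned single reads to ASM358476v1 with TopHat2 (2.1.1 in the submitters' processing notes) and counted reads per gene by strand with featureCounts 1.6.2. The deposited values are these raw counts, neither normalized nor filtered. They hold 0 lines without a gene name. Which lane each library ran on is not given in the labels, and the part of the lane was not tested.

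Counts were analysed in R 4.3.3 with edgeR 4.0.16. Genes under 30 reads in all (0.019% of reads) were left out, TMM scaled the library sizes, and the quasi-likelihood test (glmQLFit, glmQLFTest) had season as its one term. A gene was called at a Benjamini-Hochberg adjusted p below 0.05 over all genes tested. Log2 CPM used a prior count of 2. Alternatives were the bear as a replicate block, DESeq2 1.42.0 with and without it, limma 3.58.1 (voom), RLE, library totals, no filter, an adjusted p below 0.01 with a fold over 1.3 or under 0.77 and each bear left out. Leaving out the winter library of bear 1509 was added after seeing the data. The fits were tested on simulated data. The libraries of a bear come from the same animal, by the study's methods. After the mean of each season was taken off, the 2 libraries of a bear correlated at 0.0903 to 0.344 (median 0.237), and those of different bears had a median of −0.0634. The lowest chi-square per gene between libraries of a season was 39.0, so none is a copy.

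The 6 genes and all gene lists were chosen with earlier results of these data known. Named genes were the 6, every tested gene of the sodium channel and CLC families, and in each other list up to 3 called higher and 3 called lower with the smallest adjusted p. For each of the 6, the 3 genes that correlated most were named too. Some genes these rules name are not reported here and were left out of the lists, their counts and their summed levels. The counts give no coordinates and no sequence, and gene neighbours came from the RefSeq table of UrsArc2.0, which matched 6 of the 6. The sources used here state no molecular identifiers, so reads are not independent molecules.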

Additional observations from a re-analysis of the deposited data

Results flagged for a closer look

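Dixon's test at the 95% level was run on the 6 channel genes and on the list genes named by the rules above. It set the highest and the lowest of the 6 values in a season against their neighbours. Genes named for their correlation with a channel gene were not included. Chance flags about 1 in 20 groups, and 4 of 88 groups (44 genes, 2 seasons) had such a library. SCN4A in the summer library of bear 1317 had 7.87 log2 CPM, while the rest of that season had 7.49 to 7.62. SCN8A in the winter library of bear 1509 stood at 3.69 log2 CPM, above the others at 1.51 to 2.32. SCN10A in the summer library of bear 1305 stood at −2.10 log2 CPM, below the others at 0.12 to 1.01. STUB1 in the winter library of bear 1511 stood at 5.66 log2 CPM, above the others at 4.81 to 5.08.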

How the results depend on the processing

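The log2 fold changes of the 6 channel genes kept their sign under each of the 14 alternatives, from 0.31 to 0.62 for SCN4A, −0.43 to −0.23 for CLCN1, −2.06 to −1.70 for SCN4B, 2.48 to 4.06 for SCN3B, −1.72 to −0.55 for SCN2B and −1.14 to −0.85 for SCN7A. All genes called fell from 6831 to 4154 at an adjusted p below 0.01 with a fold over 1.3 or under 0.77. With that threshold the counts were 0 for the other voltage-gated sodium channel genes, 2 for the CLC family, 5 for the other chloride and leak channels, 5 for the ClC-1 list and 0 for the nerve markers. The voltage-gated sodium channel genes had 0 calls in limma voom (1 higher and 1 lower at an unadjusted p below 0.05), 1 with library totals and 1 without the winter library of bear 1509. The ClC-1 list had 7 calls with library totals. The nerve markers had 5 with the bear as a replicate block, in edgeR and in DESeq2, and 5 without the winter library of bear 1509. Leaving out each bear gave 1 to 2 calls for the voltage-gated sodium channel genes, 2 to 4 for the CLC family, 7 to 10 for the ClC-1 list and 0 to 5 for the nerve markers. Leaving out the winter library of bear 1509 alone gave 11 for the ClC-1 list, as with all libraries. The replicate block changed the call of 1 named gene, PRKCQ, and of no other. SCN3A had a log2 fold change of −0.0102 in limma voom and CLCN7 one of −0.0076 with library totals, each of opposite sign to the value above. With library totals the r of HDAC3 with SCN7A was 0.65 and that of PFN2 and PGAP3 with SCN3B 0.68 and 0.73. The cause of these changes was not tested. Library totals moved the median log2 fold change of all genes to −0.08. Depth limits SCN2B, with 1 to 47 reads per library, and SCN3A and SCN10A, each with at most 48.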
